A study of Mus musculus with 33 samples.

Results

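The odorant receptor genes numbered Olfr828 to Olfr985 are mouse class II receptor genes of chromosome 9, and 81 of them were listed in at least 1 of the 2 deposited expression tables, out of 905 Olfr genes listed in all. Members were every gene named Olfr followed by a number from 828 to 985. RefSeq (GRCm38.p6) holds 110 genes of these names, all on chromosome 9, and 29 of them were in neither table. In the RefSeq gene order the listed members formed 2 blocks, 25 members up to Olfr873 and 56 members from Olfr874 on. Between the blocks lay 308 other genes, of which 3 were named Olfr.

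Each mature olfactory sensory neuron transcribes essentially a single odorant receptor gene, from a single allele, and the receptor protein both detects odor molecules in the cilia and guides the axon to its glomerulus. Receptors signal through the G protein subunit encoded by Gnal, the adenylyl cyclase encoded by Adcy3 and the cyclic nucleotide-gated channel encoded by Cnga2, Cnga4 and Cngb1. In bulk RNA, a receptor's level follows both how many neurons chose it and how much RNA each of those neurons holds. Fewer cells of a type and less RNA per cell therefore cannot be told apart here.

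All animals were 3 weeks old and were homozygous null (KO), heterozygous-null (Het) or wild type (WT) for Dnmt3a, which encodes a DNA methyltransferase. One set of RNA libraries was made from mature olfactory sensory neurons (mOSN) purified by cell sorting, where the authors combined 2 libraries per genotype into 1 deposited value, and the other set from the whole main olfactory epithelium (MOE), with 1 library per genotype and treatment. Treatment was 60 min with paper carrying 80 µL of pure amyl acetate, acetophenone and octanal in equal parts (odor) or of water, after 10 min in a clean cage. The mOSN RNA samples are annotated with the same times and volume, but their titles name neither odor nor water. All RNA was depleted of ribosomal RNA. Both KO mOSN libraries were made with a NuGEN kit from 100 ng, both WT mOSN libraries with ScriptSeq from 200 ng, and Het had 1 of each, so that kit and genotype cannot be told apart between KO and WT mOSN. All 6 MOE libraries were made with the NuGEN kit. The label mature neuron was checked with 13 markers of these cells, all listed in both tables. They summed to 67299 in KO, 92019 in Het and 97363 in WT mOSN, against 6961 to 28776 in the MOE libraries. Immature neuron markers (10 genes) summed to 6236 in KO, 6236 in Het and 6075 in WT mOSN, against 3727 to 5873 in MOE. They too were higher in mOSN, so the check does not exclude immature neurons. The targeted gene Dnmt3a stood at 56.2, 119.9 and 174.7 in KO, Het and WT mOSN, and in MOE at 48.3 with odor and 56.1 with water in KO, 66.6 and 50.3 in Het, and 89.0 and 84.4 in WT. Values are the authors' RPKM-scale values, a read density per gene length and library depth, and whole reads could be recovered from the MOE values but not from the mOSN values. The MOE libraries held 9410063 to 17639584 reads over 14613 genes.

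Of the 81 members, 72 were listed in mOSN and 44 in MOE. Both tables held 35 of them, 37 were only in the mOSN table and 9 only in the MOE table, namely Olfr830, Olfr832, Olfr845, Olfr916, Olfr944, Olfr951, Olfr957, Olfr963 and Olfr982. The mOSN mean of the members listed in both tables had a median of 70.0, against 25.4 for those listed only in mOSN. The tables hold no 0, and it is not stated if genes without reads in a library had been dropped, so a member missing from a table cannot be read as silent.

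The bases upstream of 5 members are shown because they hold, or lack, the short sequences through which receptor promoters are known to be bound. TAATTA is the core bound by homeodomain factors such as Lhx2, and CCCNNGGG is the core bound by the Olf1/Ebf factors. Each sequence is the 250 bases before the RefSeq start, 5′ to 3′ on the gene's strand, with matches on either strand in capitals. Olfr868 (chr9:20098376-20098625, plus strand), Olfr869 (chr9:20128870-20129119, plus strand) and Olfr872 (chr9:20236912-20237161, plus strand) belong to receptor family MOR145 and lie in the first block. Olfr912 (chr9:38579994-38580243, plus strand) and Olfr983 (chr9:40093559-40093808, minus strand) lie in the second block. Coordinates are those of GRCm38.p6.
Olfr868: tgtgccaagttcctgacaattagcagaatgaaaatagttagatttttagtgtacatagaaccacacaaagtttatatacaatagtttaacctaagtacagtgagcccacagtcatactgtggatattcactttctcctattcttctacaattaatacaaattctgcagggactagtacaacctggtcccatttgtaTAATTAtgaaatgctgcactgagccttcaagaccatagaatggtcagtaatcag
Olfr869: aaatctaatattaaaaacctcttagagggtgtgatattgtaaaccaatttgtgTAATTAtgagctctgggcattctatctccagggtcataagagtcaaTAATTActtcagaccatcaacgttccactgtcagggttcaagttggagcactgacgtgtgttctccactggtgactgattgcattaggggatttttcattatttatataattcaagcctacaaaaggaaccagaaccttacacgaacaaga
Olfr872: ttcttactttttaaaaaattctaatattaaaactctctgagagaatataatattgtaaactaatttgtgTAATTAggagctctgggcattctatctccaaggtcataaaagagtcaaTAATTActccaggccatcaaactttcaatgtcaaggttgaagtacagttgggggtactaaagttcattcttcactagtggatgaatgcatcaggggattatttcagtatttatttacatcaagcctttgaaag
Olfr912: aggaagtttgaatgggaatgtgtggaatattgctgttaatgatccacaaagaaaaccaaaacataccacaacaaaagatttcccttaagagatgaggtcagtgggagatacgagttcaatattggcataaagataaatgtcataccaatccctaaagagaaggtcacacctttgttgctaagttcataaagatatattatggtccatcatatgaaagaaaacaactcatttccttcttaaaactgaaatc
Olfr983: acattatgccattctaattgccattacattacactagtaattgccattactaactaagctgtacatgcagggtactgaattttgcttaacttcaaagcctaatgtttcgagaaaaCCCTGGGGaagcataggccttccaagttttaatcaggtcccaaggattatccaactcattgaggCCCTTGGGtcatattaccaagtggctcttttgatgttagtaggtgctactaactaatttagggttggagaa

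TAATTA stood once in the window of Olfr868 and at 2 places in those of Olfr869 and Olfr872, and the window of Olfr912 held neither core. The windows of Olfr869 and Olfr872 also shared a run of 23 bases, gagctctgggcattctatctcca, while the longest run that either shared with Olfr868 was 9 bases. Olfr983 held CCCNNGGG at 2 places, and no other member window held that core. Windows of 300 bases (250 before and 50 after the start) were held for 68 members in 69 windows, of which 15 (21.7%) had TAATTA and 1 (1.45%) had CCCNNGGG. The shares were 17.9% and 3.28% of the windows of other Olfr genes, and 5.29% and 13.7% of all promoters. For 52 of the 81 members the RefSeq model was shorter than 1000 bases, so that its start is near the coding start rather than the transcript start. Among models of at least 1100 bases, to which the 5 printed windows belong, 5 of 21 member windows (23.8%) held TAATTA, against 18.4% for other Olfr genes and 4.95% for all, and 4.76%, 11.04% and 14.2% held CCCNNGGG. A match is a description of the letters and not evidence of binding.

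In sorted neurons the member levels spanned a wide range, with Olfr969 and Olfr972, both of family MOR171, far above the rest. Olfr969 (ENSMUSG00000063359) had 587.0 in KO, 639.2 in Het and 663.9 in WT mOSN, the second highest of 830 Olfr genes by its mean. Olfr972 (ENSMUSG00000058827) had 223.6 in KO, 316.0 in Het and 409.1 in WT mOSN, rank 9 of 830. Both stood above every other member in each mOSN column, and together they made up 20.6%, 19.4% and 21.5% of the summed member level in KO, Het and WT. Next came Olfr918 with 143.6, 262.7 and 178.7 in KO, Het and WT, and Olfr893 with 126.8, 200.1 and 197.9. Olfr912 had 136.1 in KO and 154.4 in Het, against 69.1 in WT, and Olfr954 had 51.0 in KO and 172.1 in Het, against 118.0 in WT. The spread behind these pooled values is not known, so the order of members this close is not settled. At the low end, Olfr980 had 2.35, 9.78 and 6.08 in KO, Het and WT. At the ends of the range of numbers, Olfr828 had 24.6, 25.6 and 26.03 and Olfr985 had 33.8, 20.9 and 39.0.

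**Figure D1:**
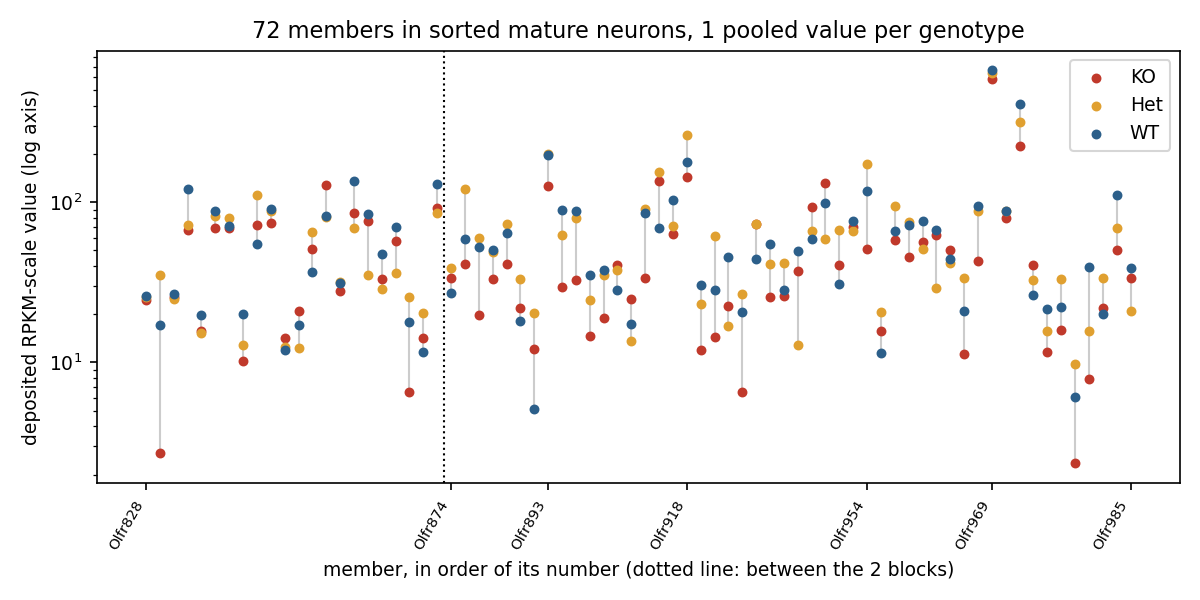
The deposited RPKM-scale value of each of the 72 members in sorted KO, Het and WT mature neurons (log axis, 1 pooled value per genotype), with members in the order of their numbers and a dotted line between the 2 blocks. Olfr969 at 587.0 to 663.9 and Olfr972 at 223.6 to 409.1 stand above the others, and the member medians are 35.5 in KO, 41.9 in Het and 48.6 in WT.

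As a group the members held a steady share of the receptor RNA of sorted neurons. Their median was 35.5 in KO, 41.9 in Het and 48.6 in WT mOSN, beside 40.2, 49.3 and 47.9 for the other 758 Olfr genes. They made up 8.28% of the summed Olfr level in KO, 8.28% in Het and 8.31% in WT, while being 8.67% of the Olfr rows. In MOE their share of the summed level varied more, at 6.62% with odor and 6.51% with water in KO, 5.74% and 8.87% in Het, and 7.20% and 7.68% in WT, where they were 7.46% of the Olfr rows.

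In whole epithelium the order of members differed at the top, and also between libraries. Olfr893 had the highest member value in KO odor, KO water and WT water, Olfr984 in Het odor, Olfr918 in Het water and Olfr835 in WT odor. The highest mean over the 6 libraries belonged to Olfr893 (ENSMUSG00000070312, family MOR170), followed by Olfr969, Olfr914, Olfr954, Olfr918 and Olfr894. Olfr893 had 191.8 with odor and 83.8 with water in KO, 16.6 and 40.5 in Het, and 41.8 and 131.2 in WT. Olfr969 ranked 54 of the 590 Olfr genes of MOE, with 111.5 and 23.1 in KO, 10.3 and 48.8 in Het, and 30.5 and 109.7 in WT. Olfr972 ranked 334 of 590, with 26.1 and 28.3 in KO, 7.88 and 1.97 in Het, and 7.29 and 29.2 in WT. For these 2 genes the rank among receptors was thus lower in MOE than in mOSN. Olfr914 had 116.8 with odor and 66.9 with water in KO, 9.40 and 17.6 in Het, and 34.2 and 84.0 in WT. Olfr954 had 87.9 and 47.1 in KO, 27.6 and 57.2 in Het, and 41.7 and 59.4 in WT. Olfr918 had 62.0 and 15.6 in KO, 18.3 and 89.5 in Het, and 42.3 and 79.7 in WT, and so was highest in Het water where Olfr914 and Olfr954 were highest in KO odor. Over the 35 members in both tables, the mean mOSN and mean MOE levels had a Spearman correlation of 0.753, a description of points that share the libraries of each table. Pairs of mOSN columns had 0.771 to 0.828 over 72 members, and pairs of MOE libraries 0.433 to 0.805 over 44. Few reads lie behind the MOE values: the member median was 27 reads with odor and 14.5 with water in KO, 7 and 21 in Het, and 18.5 and 29 in WT.

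**Figure D2:**
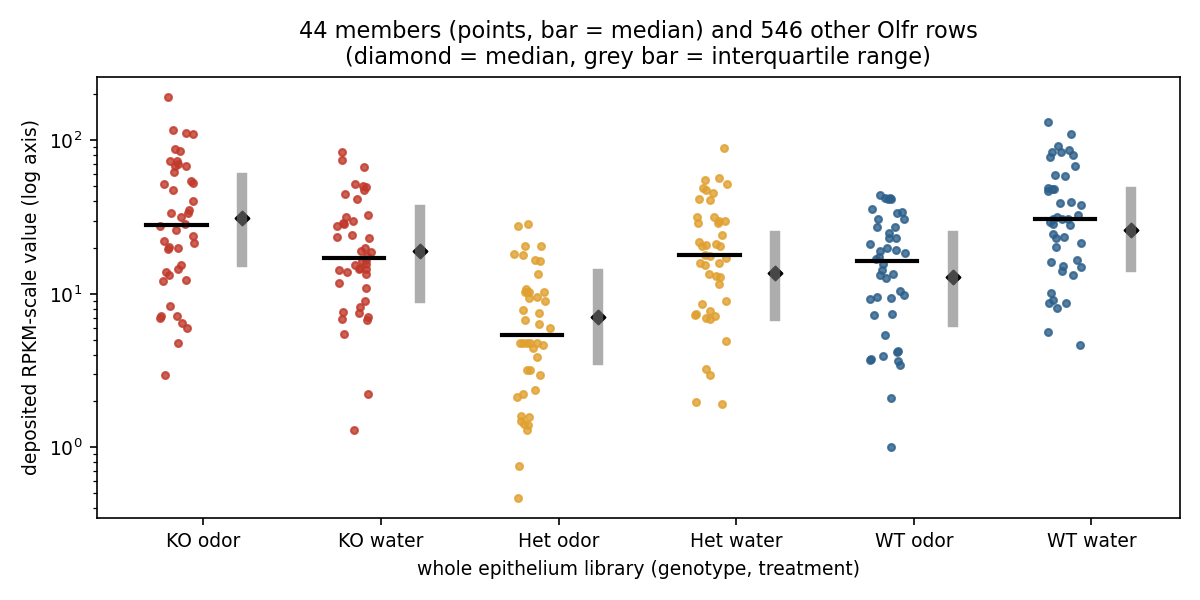
The RPKM-scale value of each of the 44 members in the 6 whole epithelium libraries (log axis; points are members, the bar their median), beside the median (diamond) and interquartile range (grey bar) of the 546 other Olfr genes. The member median is 28.0 in KO odor, 17.0 in KO water, 5.37 in Het odor, 17.8 in Het water, 16.3 in WT odor and 30.5 in WT water.

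Sorted KO neurons, set against sorted WT neurons, address what loss of Dnmt3a does to receptor RNA. Most members were lower in KO, by about as much as receptors elsewhere. Of 72 members, 52 were lower and 20 higher, with a median log2 ratio of −0.33, beside 493 of 758 lower and −0.36 for other Olfr genes. Of all 14738 genes 57.2% were lower, and their median was −0.13. Of the 72, 16 were at least 2-fold lower on the log2(value + 0.5) scale and 1 was at least 2-fold higher, where 2.84% of all genes were 2-fold lower and 17.5% 2-fold higher. Among the members 22.2% were 2-fold lower and 1.39% 2-fold higher, beside 19.1% and 6.46% of other Olfr genes. Of the 18 other Olfr genes of chromosome 9, 11 were lower, 0 of them by 2-fold, and 1 was 2-fold higher. Their median was −0.07. With 1 pooled value per genotype and a different kit in each, there is no replicate check on these ratios. All 13 mature neuron markers were lower in KO as well, with a median log2 ratio of −0.65. Summed horizontal basal cell markers stood at 80.7 in KO and 20.6 in Het, against 10.4 in WT. The sums for Bowman gland, microvillous cells, macrophages and dividing progenitors were also highest in KO. Sustentacular cell markers summed to 573.9, 555.1 and 566.3 in KO, Het and WT. Erythroid markers summed to 2537, 1752 and 2433, and ensheathing cell markers to 62.2, 64.5 and 88.3. The part of these marker differences in the result was not tested. Median-ratio scaling, which moved the median of all genes to 0.00, put the member median at −0.20.

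The members with the lowest ratio of KO over WT came from 4 receptor families. Olfr829 (ENSMUSG00000051414) had 2.73 in KO, against 17.1 in WT, a log2 ratio of −2.45, while Het had 34.9. Olfr981 had 7.91 in KO, against 39.3 in WT (−2.24), and Het lay between at 15.7. Olfr922 had 6.55 in KO, against 20.6 in WT (−1.58), with 26.8 in Het. Het was thus above WT for Olfr829 and Olfr922 and below it for Olfr981. The neighbours Olfr894 and Olfr895, both of family MOR170, had 29.6 and 32.9 in KO, against 89.7 and 87.8 in WT, log2 ratios of −1.58 and −1.40. Their family member Olfr893 was also lower (−0.64), so that all 3 MOR170 members stood below WT. Similar neighbouring receptors can share reads, and how the authors assigned such reads is not stated, so values of close relatives are uncertain.

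The members with the highest ratio stood mostly below 2-fold. Olfr890 (ENSMUSG00000061096) had 12.2 in KO, against 5.12 in WT, a log2 ratio of 1.17, and 20.4 in Het. Olfr912 (0.97), Olfr923 (0.73), Olfr935 (0.64) and Olfr859 (0.64) followed. Olfr923, a receptor described in mouse as responding to acetophenone, had 73.4 in KO and 73.6 in Het, against 43.9 in WT. Olfr983, also described as an acetophenone receptor, had 21.7 in KO and 33.8 in Het, against 20.0 in WT. Olfr958 and Olfr961, which have been described as eugenol receptors, had 58.0 and 62.8 in KO, 95.01 and 29.0 in Het, and 65.8 and 67.2 in WT. Ratios of KO over WT were thus within 2-fold for all 4 receptors of described ligands.

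**Figure D3:**
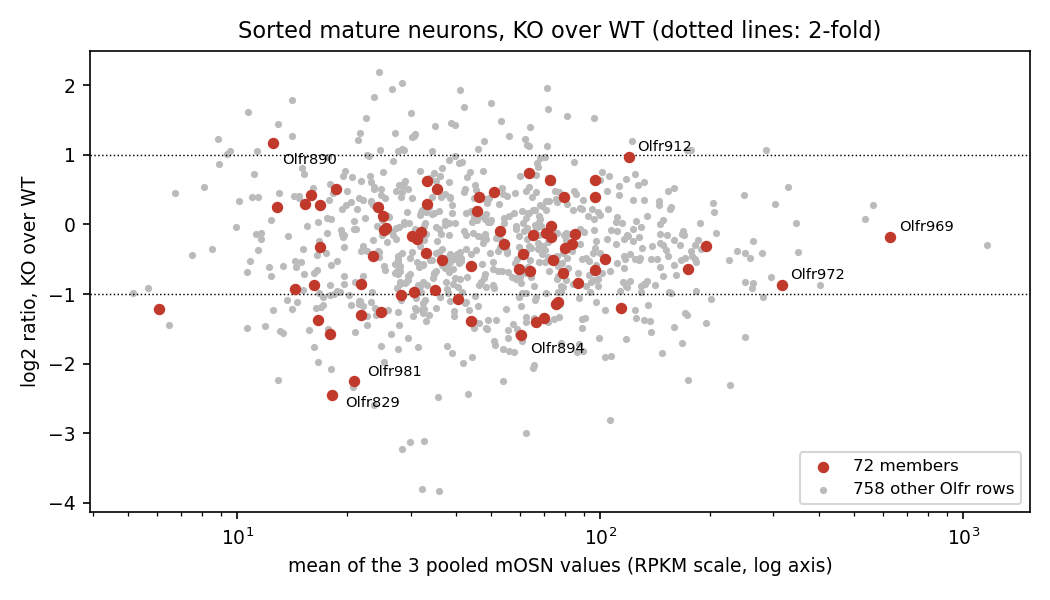
The log2 ratio of KO over WT in sorted neurons against the mean of the 3 pooled values (log axis), for 72 members (red) and 758 other Olfr genes (grey), with dotted lines at 2-fold. Olfr829 and Olfr981 are the lowest members, at −2.45 and −2.24, Olfr890 is the highest at 1.17, and the members lie within the range of the other receptors.

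The 2 blocks of members differed in the count past 2-fold, a difference that was not tested. In the second block 14 of 50 members (28%) were at least 2-fold lower in KO, and the median log2 ratio was −0.48. In the first block 2 of 22 (9.09%) were, and the median was −0.23. Of other Olfr genes 19.1% were 2-fold lower, and of all genes 2.84%. By family, the 17 listed members of MOR171, the largest family here, had a median of −0.14 with 11 lower. The 6 of MOR224 had −0.42 with 6 lower, and the 6 of MOR165 had −0.82 with 4 lower. Lower by any amount were 65.0% of other Olfr genes and 57.2% of all genes. KO was the lowest of the 3 genotypes for 39 of 72 members (54.2%), beside 55.3% of other Olfr genes and 49.1% of all genes. The order KO below Het below WT was seen in 20 members (27.8%), beside 30.2% of other Olfr genes and 32.7% of all genes.

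Sorted Het neurons split almost evenly around WT. Of 72 members 34 were higher and 38 (52.8%) lower in Het, beside 49.1% of other Olfr genes and 52.4% of all genes lower. The median log2 ratio was −0.02, beside 0.04 for other Olfr genes. By 2-fold, 7 members (9.72%) were higher and 5 (6.94%) lower, beside 8.97% and 8.71% of other Olfr genes. Of all genes 6.89% were 2-fold higher and 2.5% lower. The lowest were Olfr934 with 12.8 in Het, against 49.5 in WT (−1.91), then Olfr921 (−1.41) and Olfr981 (−1.30). The highest were Olfr890 (1.90), Olfr912 (1.15) and Olfr920 (1.11), the last with 61.9 in Het, against 28.4 in WT. Olfr890 and Olfr912 thus led among the higher members in both mutant genotypes, which share the same WT value.

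In MOE, exposure to odor was set against water over the 3 genotypes to find genes that respond to odor. No member passed the test. Of 44 members 39 (88.6%) were lower with odor, beside 73.1% of other Olfr genes and 49.9% of all genes. The median log2 difference was −0.58, beside −0.38 for other Olfr genes and 0.00 for all genes. limma called 0 members at an adjusted p of 0.05 (smallest adjusted p = 0.882), where 0.0137% of all 14602 genes tested were called. At an unadjusted p under 0.05 there were 0 members higher and 7 lower, or 15.9% of the members, beside 7.51% of other Olfr genes and 4.87% of all genes. The count model on recovered reads called 0 members. These p-values measure only the spread between 6 libraries that are not stated to come from separate animals.

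The odor difference did not have the same direction in every genotype. The member median was 0.73 in KO, −1.38 in Het and −1.11 in WT, and the other Olfr genes had 0.75, −0.87 and −1.02. In KO 34 of 44 members were higher with odor, 12 of them by 2-fold or more and 2 lower by 2-fold, where 5.4% of all genes were 2-fold higher and 4.1% lower. In Het 40 of 44 were lower, 31 of them by 2-fold and 1 higher by 2-fold, against 6.29% and 4.26% of all genes. In WT 38 of 44 were lower, 26 of them by 2-fold and 1 higher by 2-fold, against 7.09% and 5.22% of all genes. In KO, Het and WT, 20.5%, 77.7% and 81.7% of other Olfr genes were lower with odor, beside 47.1%, 47.5% and 50.5% of all genes. By 2-fold, 40.1%, 6.23% and 4.03% of other Olfr genes were higher in KO, Het and WT, and 4.21%, 45.6% and 51.3% lower. Of members, 27.3%, 2.27% and 2.27% were higher by 2-fold, and 4.55%, 70.5% and 59.1% lower. With 1 library per genotype and treatment, each of these 3 differences rests on 1 pair of libraries. The median over genotypes was −1.41 without a KO library, −0.17 without a Het library and −0.35 without a WT library, so single libraries decided its size.

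**Figure D4:**
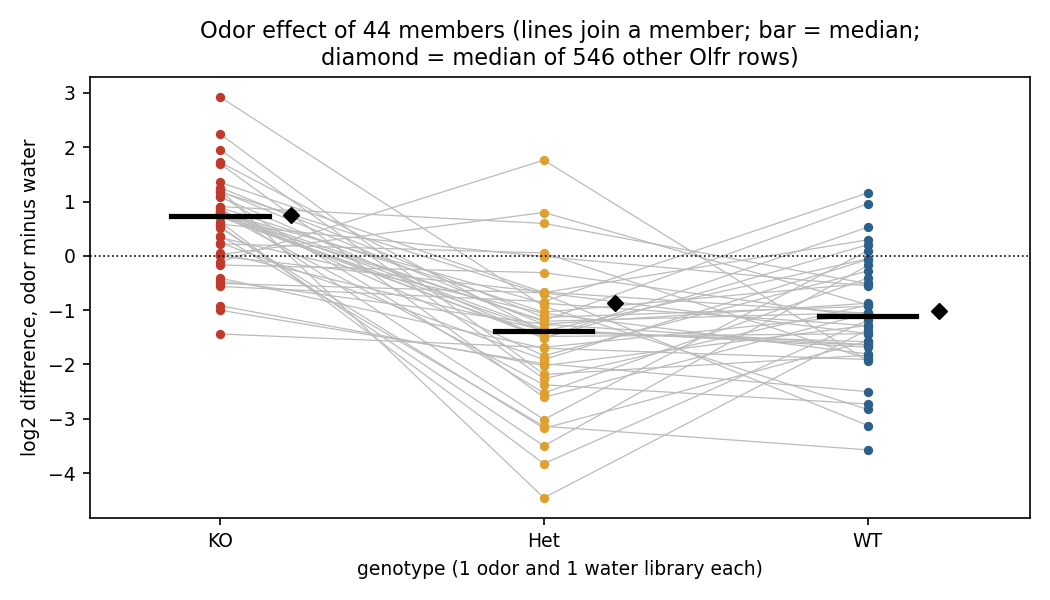
The log2 difference of odor minus water in KO, Het and WT epithelium for each of the 44 members (points; thin lines join a member across genotypes; the bar is the median), with the median of 546 other Olfr genes as a diamond. The member median is 0.73 in KO, −1.38 in Het and −1.11 in WT.

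Most members followed the same sequence of signs. The pattern of higher with odor in KO and lower in Het and WT was seen in 26 of 44 members (59.1%), beside 286 of 546 other Olfr genes (52.4%) and 16.7% of all genes. Lower with odor in all 3 genotypes were 8 members (18.2%), beside 10.4% of other Olfr genes and 11.9% of all genes. Higher in all 3 were 0 members, beside 2.75% of other Olfr genes and 15.6% of all genes. The 4 members with the smallest p for a lower value were among these 8 for Olfr982, Olfr857, Olfr876 and Olfr933. Olfr982 had 6.97 with odor, against 19.8 with water, in KO, 3.85 against 13.5 in Het and 13.2 against 28.5 in WT, a log2 difference of −1.40 ± 0.29 (SE of limma over 6 libraries). Olfr857 had 12.1 against 23.3 in KO, 4.80 against 21.0 in Het and 19.1 against 47.0 in WT (−1.41 ± 0.31). For both genes the odor library lay below the water library in every genotype. Olfr876 had −1.83 ± 0.41 and Olfr933 −1.34 ± 0.39, and the 4 had limma adjusted p = 0.882. Among members with a higher estimate, Olfr958 had 0.33 ± 0.38, and Olfr912, Olfr921 and Olfr945 had 0.32, 0.17 and 0.03, whose sign turned when a KO library (all 3 genes) or a WT library (Olfr921 and Olfr945) was left out. Neither acetophenone receptor, Olfr923 or Olfr983, was listed in MOE, so their response to the mixture was not analysed here.

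KO epithelium was set against WT epithelium over both treatments. No member passed the test, and the member median had opposite signs with odor and with water. Of 44 members 26 were higher and 18 (40.9%) lower in KO, beside 32.6% of other Olfr genes and 51.5% of all genes lower. The median log2 difference was 0.20, beside 0.39 for other Olfr genes. limma called 0 members (smallest adjusted p = 1.00), where 0% of all genes were called, and the count model called 0. The unadjusted p was under 0.05 for 2 members higher in KO and 1 lower, or 6.82% of the members, beside 10.99% of other Olfr genes and 2.23% of all genes. With odor the median of KO over WT was 1.05 with 36 of 44 members higher, and with water it was −0.73 with 10 of 44 higher. Other Olfr genes had 1.28 with odor and −0.47 with water, with 450 and 166 of 546 higher, beside 7310 and 7175 of all 14602 genes. The median over both treatments was −0.67 without the KO odor library, 1.06 without the KO water library, −0.12 without the WT odor library and 0.51 without the WT water library. Both KO libraries were above both WT libraries for 7 members (15.9%) and below them for 3 (6.82%), beside 12.4% and 13.3% of all genes.

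KO lay above WT with odor and with water for 9 of 44 members (20.5%) and below it in both for 7 (15.9%), beside 20.2% and 21.0% of all genes. Olfr984 (ENSMUSG00000045812) had 73.6 with odor and 74.1 with water in KO, against 22.9 and 48.3 in WT, a log2 difference of 1.14 ± 0.32, with 62 and 55 reads in KO against 22 and 48 in WT. Olfr869 had 19.5 and 16.4 in KO, against 5.37 and 5.66 in WT (1.61 ± 0.62). Both KO libraries lay above both WT libraries for both genes, whose limma adjusted p was 1.00. In sorted neurons these genes stood the other way, with log2 ratios of KO over WT of −1.12 for Olfr984 and −0.51 for Olfr869. Olfr868 (0.91 ± 0.44) and Olfr958 (0.92 ± 0.46) followed. On the lower side stood Olfr832 with 5.98 and 6.78 in KO, against 9.44 and 21.3 in WT (−1.10 ± 0.41), Olfr857 (−0.82 ± 0.38), Olfr871 (−1.27 ± 0.64) and Olfr982 (−0.70 ± 0.36).

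Most members were lower in Het than in WT epithelium, and again no member passed the test. Of 44 members 36 (81.8%) were lower in Het, beside 87.5% of other Olfr genes and 47.4% of all genes. The median log2 difference was −1.18, beside −0.89 for other Olfr genes. limma called 0 members (smallest adjusted p = 0.706) where 0% of all genes were called. At an unadjusted p under 0.05 there were 0 members higher and 10 lower, or 22.7% of the members, beside 21.2% of other Olfr genes and 6.69% of all genes. The count model called 0 members. The Het odor library was the lowest of the 6 for 30 of 44 members (68.2%), beside 309 of 546 other Olfr genes (56.6%) and 25.9% of all genes. Both Het libraries lay below both WT libraries for 14 members (31.8%), beside 37.0% of other Olfr genes and 18.0% of all genes. The median was −0.37 without the Het odor library and −1.58 without the Het water library, and −0.56 without the WT water library.

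Olfr845, a receptor listed only in MOE, had the lowest Het value against WT. It had 1.58 with odor and 4.94 with water in Het, against 27.2 and 28.3 in WT, a log2 difference of −3.07 ± 0.55, from 2 and 5 reads in Het against 26 and 28 in WT. In KO it stood at 40.5 with odor and 24.3 with water. Olfr948 had 4.62 and 7.71 in Het, against 14.3 and 39.4 in WT (−1.90 ± 0.37), Olfr857 had −1.51 ± 0.38 and Olfr914 −2.01 ± 0.52. The 4 genes had both Het libraries below both WT libraries except Olfr857, whose 21.0 in Het water was above the 19.1 of WT odor, and their limma adjusted p was 0.706. The members with the smallest p for a higher value were Olfr944 (0.74 ± 0.42), Olfr884 (1.00 ± 0.68), Olfr933 (0.44 ± 0.48) and Olfr974 (0.21 ± 0.62). The sign of Olfr884 and Olfr974 turned when a single library was left out.

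The odor difference in KO was tested against the common odor difference in Het and WT, which addresses whether the response to odor depends on Dnmt3a. The estimate was above 0 for 41 of 44 members, beside 489 of 546 other Olfr genes and 7256 of all 14602 genes. The median log2 difference was 1.72, beside 1.65 for other Olfr genes and 0.00 for all genes. limma called 0 members (smallest adjusted p = 0.232), where 0% of all genes were called. At an unadjusted p under 0.05 there were 19 members higher and 0 lower, a share of 43.2% of the members, against 42.3% of other Olfr genes and 7.12% of all genes. The count model on recovered reads called 0. The fit has 1 residual degree of freedom and assumes that Het and WT respond alike. Set against WT alone the median was 1.51, and against Het alone 2.07.

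Olfr969, the most abundant member of sorted neurons, had the smallest p. With 93 reads with odor and 17 with water in KO, 13 and 49 in Het, and 29 and 108 in WT, its odor difference was 2.25 in KO, −2.18 in Het and −1.83 in WT, a log2 difference of 4.25 ± 0.45. Olfr894 had 85.2 with odor and 49.6 with water in KO, 10.2 and 55.0 in Het, and 13.5 and 92.2 in WT (3.32 ± 0.46). Its neighbour Olfr893 followed with 2.64 ± 0.41, then Olfr867 with 51.8 and 15.3 in KO, 7.48 and 20.6 in Het, and 9.88 and 30.5 in WT (3.22 ± 0.56). In each of these 4 genes the odor library was above the water library in KO and below it in Het and WT, and the limma adjusted p was 0.232 to 0.318. The 3 members with an estimate below 0 were Olfr957 (−0.72 ± 1.01), Olfr982 (−0.06 ± 0.67) and Olfr972 (−0.03 ± 1.502). The sign of Olfr957 and Olfr982 turned against Het alone, and that of Olfr972 against WT alone, with a pseudocount of 1 and in the count model.

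By their median, mature neuron markers changed with odor in the same direction as the members in each genotype, but by less. The marker median for odor over water was 0.31 in KO, −0.40 in Het and −0.22 in WT, beside 0.73, −1.38 and −1.11 for members. The sum of the 13 markers was 28776 with odor and 21939 with water in KO, 6961 and 11335 in Het, and 19568 and 25873 in WT. Omp, which marks mature olfactory sensory neurons, had 5752 and 3296 in KO, 249.1 and 1582 in Het, and 2717 and 5962 in WT. Het odor, the library with the lowest member level, was thus also the lowest in Omp and in the summed markers. All 13 markers were lower in Het than in WT, with a median log2 difference of −1.03. Per 1000 units of the summed markers, the members summed to 63.8 with odor and 48.7 with water in KO, 51.2 and 89.4 in Het, and 41.0 and 67.2 in WT. Per 1000 units of Omp alone, the members summed to 319.3 with odor and 324.2 with water in KO. That ratio was 1430 and 640.5 in Het, and 295.0 and 291.6 in WT. Set against Omp, the members were thus nearly level in KO and WT and higher with odor in Het. The marker median was −0.12 for odor against water and 0.12 for KO against WT, beside member medians of −0.58 and 0.20. Less the median of the markers, the member median became −0.15 for Het against WT and 1.11 for the odor difference in KO against Het and WT. In sorted neurons it became 0.32 for KO over WT. This subtraction, chosen after the data had been seen, shifts every gene by the same amount, and medians of other Olfr genes became 0.14, 1.04 and 0.29 and those of all genes 1.05, −0.61 and 0.52. Summed horizontal basal cell markers were 110.9 and 182.1 in KO, 311.1 and 181.8 in Het, and 208.8 and 162.0 in WT, and summed dividing progenitor markers were 917.1 and 759.4 in KO, 1395 and 944.9 in Het, and 854.1 and 1112 in WT. The part of these cell type differences in the results was not tested.

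**Figure D5:**
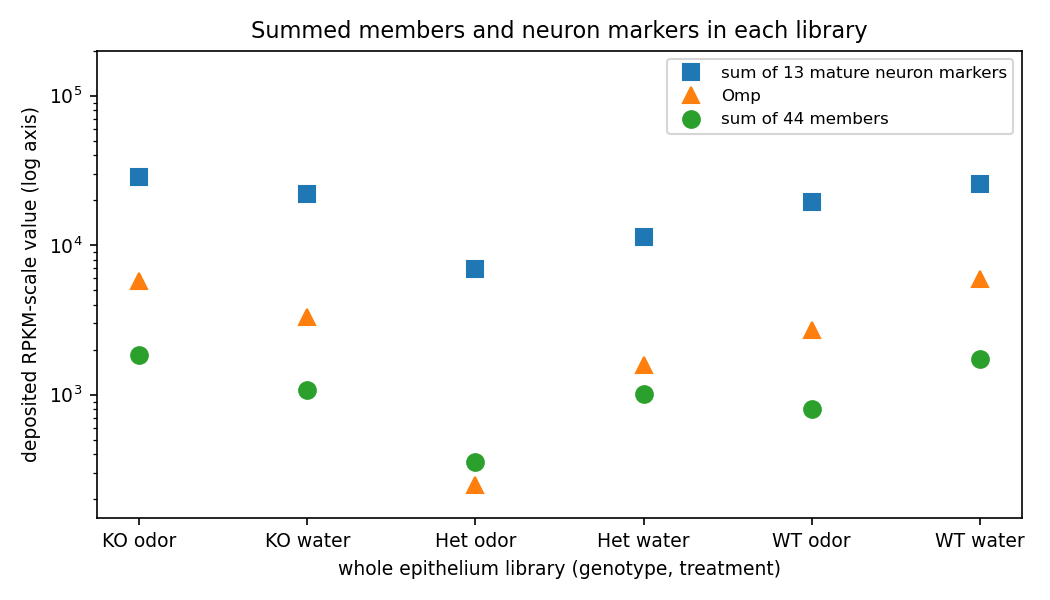
The summed level of the 44 members, of 13 mature neuron markers and of Omp in each whole epithelium library (log axis, RPKM scale). All 3 are lowest in Het odor, at 356.3, 6961 and 249.1, and Omp ranges up to 5962 in WT water.

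Genes that choose, transcribe and transport odorant receptors were described beside the members. In the list of 20 such genes, which holds Lhx2, Ldb1, Emx2 and the Ebf factors, the demethylase gene Kdm1a and the transport genes Rtp1 and Rtp2, limma called 0 in each of the 4 MOE comparisons. The median log2 difference was 0.08 for odor against water (13 higher and 7 lower), 0.01 for KO against WT (11 and 9), −0.20 for Het against WT (7 and 13) and 0.05 for the odor difference in KO (13 and 7). For Het against WT the list was uneven, with Adcy3 at −1.03 ± 0.23, Ebf4 at −0.999 ± 0.27, Reep1 at −0.81 ± 0.20, Rtp1 at −0.73 ± 0.22 and Rtp2 at −0.52 ± 0.20 (limma adjusted p = 0.706). Adcy3, Rtp1, Rtp2 and Ebf2 are also among the mature neuron markers. In sorted neurons 17 of the 20 were lower in KO than in WT, with a median of −0.37, where 57.2% of all genes were lower. In Het 11 of 20 were lower, with a median of −0.05, where 52.4% of all genes were lower. Rtp1, which helps receptors reach the cell surface, had 4283 in KO and 5038 in Het, against 4786 in WT mOSN. Lhx2, whose protein is known to bind TAATTA cores, had 587.6 in KO and 724.9 in Het, against 657.1 in WT mOSN.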

How the data were processed

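RNA-seq values of 12 of the 33 samples of the series were used, and the other 21 were not analysed here. The 2 deposited tables give what the authors named RPKM, in 1 column per MOE library and 1 pooled value per genotype in mOSN. The submitters' processing notes list featureCounts, DESeq, STAR 2.3.0, Bowtie2 2.1 and Picard 1.64, and the builds NCBIM37 and mm9. Their settings, use of strand and treatment of reads shared by similar receptors are not given in the sources used here. MOE values of all 14613 genes (100%) were whole multiples of 1 read within a relative tolerance of 1e-05, which gave the reads, short of any factor common to all 6 counts of a gene. This did not work for mOSN (0.333% of 300 low genes). Of 14751 mOSN rows, 7 without values were left out. Intervals are not given for single values, since 1 library per group gives counting error only.

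A gene was kept if 2 or more columns reached 0.5 (14602 in MOE with all 44 members, 14738 in mOSN with all 72), as log2(value + 0.5), a scale that understates changes of low genes. limma 3.58.1 in R 4.3.3 (empirical Bayes with a trend, two-sided, Benjamini-Hochberg over all genes, threshold 0.05) fitted genotype and treatment over 6 libraries with 2 residual degrees of freedom, and a KO-by-odor term with 1. An odor response that is unequal between genotypes enters the error of the first model. Errors are limma's standard errors, ± SE. The limma test planned for mOSN could not be run on pooled values, so 2-fold counts with no test stand in its place. The scripts were tested on simulated data. For the limma fits, large changes were placed only in genes with many more reads than the member medians. The simulation therefore does not show whether a change in a member could be called. The count model named in the text is limma's voom on the recovered reads.

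Names and gene order came from RefSeq by symbol (81 of 81 matched), and no coordinates of the authors' build were used. Proteins were not analysed here. Named genes are the 6 with the highest mean in each table, the 5 with the largest ratio each way for KO and the 3 for Het in mOSN, the 4 with the smallest p each way in each MOE comparison, 4 receptors of described ligands and the ends of the range. Outside this rule, some are named for being listed only in MOE, for an extreme value or for a printed window. The printed windows were picked for the cores they hold or lack. Olfr911-ps1 was not a member because its name carries a suffix. Members, gene lists and rules were chosen with earlier results of these data known. Alternatives covered pseudocount, filter, scaling, trend, voom, fold and leaving out each library.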

Additional observations from a re-analysis of the deposited data

Results flagged for a closer look

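The member median of the log2 odor difference was 0.73 in KO, −1.38 in Het and −1.11 in WT epithelium, so its sign was not the same in every genotype. The difference between genotypes was not tested for the list. The test for single genes called 0 of 44 members and 0 of 14602 genes. The member median of KO over WT was 1.05 with odor and −0.73 with water, which was likewise not tested for the list. Other Olfr genes had 0.75, −0.87 and −1.02 for odor in KO, Het and WT, and 1.28 and −0.47 for KO over WT with odor and with water. These comparisons share libraries and are not independent of each other.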

How the results depend on the processing

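No member was called under any alternative run, with smallest adjusted p-values of 0.260 (odor), 0.264 (KO), 0.231 (Het) and 0.231 (odor difference in KO). The count of all genes called for odor, 2, became 0 to 4 when 1 library was left out, 1 with median-ratio scaling, 0 without the mean-variance trend and 6 with voom, and the count for Het, 0, became 0 to 27 when 1 library was left out. The member median for odor ranged from −1.41 to −0.17 without 1 library, that for KO against WT from −0.67 without the KO odor library to 1.06 without the KO water library, and that for Het from −1.58 to −0.37. The median of the mature neuron markers was −0.12 for odor and 0.12 for KO against WT in MOE. Less the mature neuron markers, medians became −0.15 for Het, 1.11 for the odor difference in KO and 0.32 for sorted KO neurons. This shifts every gene alike, and the all-gene median of sorted KO neurons became 0.52, so the member median stayed below it. The odor difference in KO had a median of 1.51 against WT alone and 2.07 against Het alone, and leaving out single libraries could not be fitted with its 1 residual degree of freedom. At 1.5-fold instead of 2-fold, 6 members were higher and 29 lower in sorted KO neurons, and 15 higher and 14 lower in Het, beside 25.4% of all genes higher and 15.9% lower in KO, and 14.8% and 7.65% in Het. The members' shares were 8.33% and 40.3% in KO, and 20.8% and 19.4% in Het. Other Olfr genes had 12.7% and 36.9% in KO, and 21.1% and 18.7% in Het. Median-ratio scaling gave 2 higher, a member median of −0.20 and an all-gene median of 0.0028, which this scaling sets near 0. Of the named genes, the odor difference ranged from −0.19 to 0.83 for Olfr912, from −0.22 to 0.85 for Olfr921 and from −0.49 to 0.81 for Olfr945 without single libraries, and turned to −0.14 for Olfr945 with voom. The Het difference ranged from −0.80 to 1.23 for Olfr974 and from −0.058 to 2.06 for Olfr884 without single libraries. The odor difference in KO turned for Olfr972 (0.032 with a pseudocount of 1, 0.52 with voom, 1.82 against WT alone), Olfr957 (0.28 against Het alone) and Olfr982 (0.25 against Het alone). The cause was not tested. No paired analysis was possible because the mOSN columns are pooled and MOE has 1 library per group. The low read counts of members in MOE limit all of these values.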

Other observations

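In MOE the members held 1628 reads with odor and 845 with water in KO, 466 and 1047 in Het, and 814 and 1765 in WT. As a share of all Olfr reads this was 5.55% and 5.43% in KO, 4.51% and 7.19% in Het, and 6.04% and 6.23% in WT. The exact 95% intervals, which cover counting error only, were 5.29% to 5.81% and 5.08% to 5.80% in KO, 4.12% to 4.93% and 6.77% to 7.62% in Het, and 5.64% to 6.45% and 5.95% to 6.51% in WT. The Het pair of libraries was thus farthest apart.

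Markers of other cells were listed in MOE as follows. Summed immature neuron markers had 3727 with odor and 4120 with water in KO, 5873 and 4287 in Het, and 3861 and 4992 in WT. Sustentacular cell markers had 28386 and 32411 in KO, 38050 and 28542 in Het, and 36313 and 24766 in WT. Bowman gland markers had 45532 and 38308 in KO, 20022 and 66385 in Het, and 55628 and 16016 in WT, a sum led by Obp1a. Erythroid markers had 63666 and 105453 in KO, 126118 and 72712 in Het, and 68055 and 83844 in WT. Macrophage markers summed to 3974 and 1712 in KO, 2230 and 2232 in Het, and 1503 and 1130 in WT, a sum led by Lyz2. In KO odor Lyz2 had 3626, its highest value, while Cd68 (43.3) and Csf1r (16.7) had their lowest. C1qa, C1qb and C1qc were neither highest nor lowest there. Microvillous cell markers had 429.8 and 261.5 in KO, 369.4 and 275.4 in Het, and 356.7 and 149.9 in WT. Ensheathing cell markers had 1027 and 1015 in KO, 1508 and 1430 in Het, and 999.1 and 2060 in WT. No gene of these lists was called in any of the 4 MOE comparisons.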
